A study of Mus musculus with 9 samples.

Results

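The cells described here are CD8 single-positive (CD8 SP) thymocytes that carried transcripts of strong recent T cell receptor (TCR) stimulation. They were chosen from the CD8 SP library by measured values: a summed count of at least 3 unique molecular identifiers (UMIs, 1 per captured RNA molecule) over Nr4a3, Tnfrsf9, Tnfrsf4, Xcl1, Gadd45b and Bcl2a1b, and fewer than 5 over the cell cycle genes Mki67, Top2a, Cdk1, Birc5, Ube2c and Ccnb2. The rule found 279 agonist-signalled cells, 146 from wild-type (WT) mice and 133 from mice with the I173A substitution in CD3ε, among 5889 WT and I173A cells of the CD8 SP gate that passed filtering and 16884 of the 3 gates together. Thymocytes of adult female mice of both genotypes were stained with a different hashtag antibody each, sorted into CD4 SP, CD8 SP and double-positive (DP) cells, and run as 1 mixed library per gate on the 10x Genomics 5′ platform, with TCR sequencing of the same cells. CD3ε is one of the signalling chains of the TCR complex, and the series' title describes the mutation as enhancing the TCR signal. The labels give no other allele or agent, and how many mice each genotype came from is not stated in the labels. Each genotype was therefore 1 sample, no difference below has a replicate check, no test was run, and every interval is a 95% interval that covers counting error only.

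Developing T cells test their receptors against self peptides on MHC molecules. A strong encounter induces genes of the NR4A, EGR and NF-κB families, and such cells can die, which is negative selection, or take an agonist-selected fate such as the precursors of intestinal intraepithelial lymphocytes (IEL) or regulatory T cells. Cells that receive a weaker signal mature, induce the transcription factor Klf2 and its target S1pr1, the receptor for sphingosine 1-phosphate that guides exit from the thymus, and leave. Of the genes in the rule, Nr4a3 encodes a nuclear receptor transcribed within hours of TCR engagement, Tnfrsf9 (4-1BB, CD137) and Tnfrsf4 (OX40) are costimulatory receptors of the TNF receptor family, Xcl1 is a chemokine that attracts XCR1-bearing dendritic cells, Gadd45b is a stress and NF-κB response gene, and Bcl2a1b is an anti-apoptotic member of the BCL2 family.

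Most agonist-signalled cells were sampled with their receptor. The third complementarity-determining region (CDR3), the loop that spans the V and J joint and contacts the peptide, is shown as DNA, 5′ to 3′, for the cells with the most Xcl1 UMIs among those with exactly 1 α (TRA) and 1 β (TRB) contig, because these cells lead the rule and share no receptor. The sequences come from the deposited contig tables. Capitals in the β chain mark codons 6 and 7 of the CDR3, counted from 1 at the first codon of the loop as given in the tables, the positions examined with the receptors at the end of this section.
WT cell with 177 Xcl1 UMIs, TRAV8-1 and TRAJ39: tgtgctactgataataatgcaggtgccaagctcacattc
WT cell with 177 Xcl1 UMIs, TRBV3 and TRBJ2-4: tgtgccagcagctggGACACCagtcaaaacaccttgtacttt
WT cell with 67 Xcl1 UMIs, TRBV14 and TRBJ1-5: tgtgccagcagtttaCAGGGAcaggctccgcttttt
WT cell with 19 Xcl1 UMIs, TRBV14 and TRBJ2-1: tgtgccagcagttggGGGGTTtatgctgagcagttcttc
I173A cell with 177 Xcl1 UMIs, TRAV13-2 and TRAJ43: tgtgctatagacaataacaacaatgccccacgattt
I173A cell with 177 Xcl1 UMIs, TRBV13-3 and TRBJ1-4: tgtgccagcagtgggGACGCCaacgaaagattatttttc
I173A cell with 141 Xcl1 UMIs, TRBV12-2 and TRBJ2-3: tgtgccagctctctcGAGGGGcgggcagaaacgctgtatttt
I173A cell with 62 Xcl1 UMIs, TRBV16 and TRBJ2-5: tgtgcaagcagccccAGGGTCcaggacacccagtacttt
The WT cell with 19 and the I173A cell with 62 Xcl1 UMIs were shown because they are the first in that order with a hydrophobic residue at position 6 or 7; the others shown have none there.

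A sequence around an annotated start site is shown for Tnfrsf9, the rule gene detected in the most agonist-signalled cells. The RefSeq table holds windows at 2 start sites of it on chromosome 4 (GRCm38.p6), and the window from 250 bases before to 50 bases after the second one, chr4:150927749-150928048 on the plus strand, holds a match to an NF-κB motif and, downstream of it, one to an AP-1 motif, both in capitals.
Tnfrsf9, second start site: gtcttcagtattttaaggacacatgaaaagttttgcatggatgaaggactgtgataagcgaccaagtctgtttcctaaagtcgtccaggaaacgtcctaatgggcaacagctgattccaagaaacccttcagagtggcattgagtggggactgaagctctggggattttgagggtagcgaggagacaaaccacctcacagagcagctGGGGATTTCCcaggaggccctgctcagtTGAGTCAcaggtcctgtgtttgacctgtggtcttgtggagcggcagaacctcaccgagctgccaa
The motifs were searched as GGG and TTCC with any 3 bases between them for NF-κB and as TGANTCA for AP-1, on both strands, and occur in 5.56% and 7.81% of all 32851 mouse windows of this length. The matches begin 43 and 15 bases before the start site. Of the 7 windows of the 6 rule genes, 1 held the NF-κB motif and 2 the AP-1 motif, the other AP-1 match being in Bcl2a1b. TGACGTCA (CRE) and AAAGGTCA (the NR4A monomer site) were in none of the 7, and in 1.79% and 1.51% of all windows. The EGR motif GCGTGGGCG was in that of Bcl2a1b and the E-box CACGTG in those of Gadd45b and Tnfrsf4. Over all windows these 2 motifs occur in 0.612% and 7.15%. A match describes these letters and is not evidence of binding. None of the searches found a match in the windows of Xcl1 or Nr4a3 or in that at the first start site of Tnfrsf9. Which start site of Tnfrsf9 these cells used was not tested.

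The CD8 SP library held 9239 barcodes and 65934387 UMIs, and 5.43% of its barcodes carried several hashtags and were left out, which leaves doublets of the same genotype in. Of its barcodes, 231 also occur in another gate's library, among them 3 WT and 1 I173A agonist-signalled cells. The agonist-signalled cells were deeper than the rest, with median totals of 6876.5 UMIs in WT and 6506 in I173A against 5252 and 4974 in the other noncycling cells of the gate. Their summed UMIs were 1115760 and 1006615, and those of the 2357 WT and 2476 I173A other noncycling cells 12968114 and 13180999. Levels are given as CPM, the counts of a gene scaled to a constant total of summed UMIs in a group.

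The cells were checked against the markers of their gate. Cd4 and Zbtb7b, which define the CD4 lineage, had 0 UMIs in agonist-signalled cells of both genotypes. Of the remaining CD4 SP markers, St8sia6 had 1 UMI in WT and 0 in I173A, and Cd40lg had 1 and 11. The latter count was 10.9 CPM against 0.910 in the other I173A cells, and 2 I173A agonist-signalled cells held 2 or more UMIs of this list. All 6 CD8 SP markers were detected, with a summed level of 3060 CPM in WT and 3086 in I173A against 4708 and 4511 in the other cells. Cd8b1, the β chain of the CD8 coreceptor, stood at 957 and 912 CPM in agonist-signalled cells against 1906 and 1782 in the others. Cd8a differed less, with 1144 and 1093 CPM against 1338 and 1160. The invariant NKT list of 8 markers summed to 78 UMIs in WT and 96 in I173A, with 4 markers at 0 in each. Its defining factor Zbtb16, Klrb1b and Il4 were at 0 in both genotypes, Slamf6 gave 74 and 81 UMIs, and Tbx21 gave 0 and 12, the latter at 11.9 CPM against 0.455 in the other I173A cells. Of the 5 regulatory T cell markers, Foxp3, the defining factor, had 1 UMI in WT and 0 in I173A. Il2ra, the α chain of the IL-2 receptor, was at 19.7 and 25.8 CPM against 0.848 and 0.607 in the other cells, and Lrrc32 at 2.69 and 7.95 against 0.154 and 0.152. Neutrophil and erythroid markers were at 0. The B cell list had 6 of its 8 markers at 0 in each genotype, and its remaining UMIs were of Ighm and Cd79b. The γδ T cell list summed to 8 UMIs in WT and 4 in I173A, and of the thymic epithelial list only Epcam was detected, at 16 and 9 UMIs.

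Among the agonist-signalled cells, 1 barcode stands apart. An I173A barcode with 19328 UMIs passed the rule on 7 UMIs of Bcl2a1b alone and held 1975 UMIs of dendritic or macrophage markers, including 271 of H2-Aa, 255 of H2-Eb1, 240 of H2-Ab1, 37 of Naaa and 7 each of the cross-presenting dendritic cell genes Xcr1 and Clec9a. It had 0 UMIs of Cd3e, Cd8b1 and Trac and no TCR contig. Every H2-Aa, H2-Eb1 and H2-Ab1 UMI of the 279 cells came from it. Results on genotype are therefore given with and without it. Of the other noncycling cells, 2 WT and 2 I173A barcodes held 10 or more UMIs of these MHC class II genes. They were kept in the contrast of agonist-signalled with other cells.

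Agonist-signalled cells made up 4.84% of WT cells (146 of 3017, interval 4.10 to 5.67) and 4.63% of I173A cells (133 of 2872, 3.89 to 5.46). The I173A to WT ratio of these shares was 0.957 (0.751 to 1.22), an interval that takes in 1. It covers counting error only, and with 1 sample per genotype no number of cells could show or exclude a genotype difference. Among noncycling cells the shares were 5.83% and 5.10%, with a ratio of 0.874 (0.686 to 1.11). The denominators differ because 514 WT and 263 I173A cells of the gate were counted as cycling. The same rule selected 15.02% of WT and 17.15% of I173A cells in the CD4 SP gate, with a ratio of 1.14 (1.00 to 1.30), and 3 of 2516 WT and 11 of 2706 I173A cells in the DP gate. The difference between the gates' ratios was not tested. Median UMIs per kept cell were 6079 and 5786.5 in the CD4 SP gate and 2906.5 and 2750.5 in the DP gate.

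A fixed count of UMIs is reached more easily in a deep cell. The share of noncycling cells passing the rule went from 2.79% of WT and 1.35% of I173A cells under 3000 UMIs to 15.8% and 14.7% of cells with 8000 or more. When each cell was thinned to 3000 UMIs and the threshold set to 2, which left out 215 WT and 296 I173A noncycling cells, the shares were 5.20% and 5.58%, with a ratio of 1.07. At thinned thresholds of 3 and 1 the ratio was 0.975 and 0.961, from shares of 3.103% and 3.026% and of 15.5% and 14.9%. Just inside the threshold, at a sum of exactly 3, were 41 WT and 43 I173A cells, and just outside it, at a sum of 2, were 82 and 110. The class is a range cut from a count, and whether its cells form a separate cell type was not tested.

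**Figure D1:**
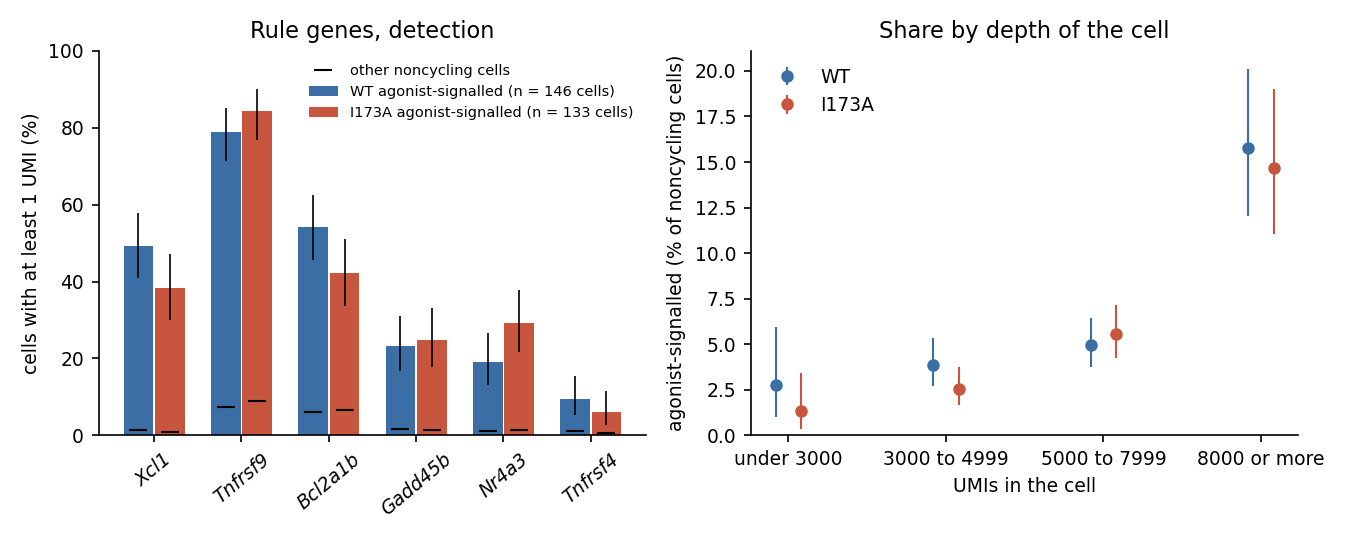
Left, percent of agonist-signalled cells of each genotype with at least 1 UMI of each of the 6 rule genes (bars, exact 95% binomial intervals), with the percent of other noncycling cells as black marks. Right, percent of noncycling CD8 SP cells that passed the rule, by the number of UMIs in the cell, with exact 95% intervals. Tnfrsf9 was detected in the most cells and Tnfrsf4 in the fewest, and the share passing the rule was highest in cells with 8000 or more UMIs in both genotypes.

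The genes that chose the cells are described without a test. Tnfrsf9 was the most widely detected, in 115 of 146 WT cells (78.8%) and 112 of 133 I173A cells (84.2%), at 483 and 489 CPM. It had at least 1 UMI in 7.51% and 8.97% of other noncycling cells and in 0.566% and 0.623% of noncycling DP cells, whose median depth was 2667 and 2700 UMIs. Xcl1 had the highest level, 959 CPM in WT and 950 in I173A, but in fewer cells, 72 (49.3%) and 51 (38.3%). No noncycling DP cell held a UMI of Xcl1, and 1.32% and 0.808% of the other CD8 SP cells did. A single WT cell held 16.5% of the group's Xcl1 UMIs and a single I173A cell 18.5%, so the levels of this gene rest on few cells. Bcl2a1b was at 193 and 166 CPM and in 79 and 56 cells, and it has near-identical paralogs, so how the counter divided their reads is uncertain. Gadd45b was at 81.6 and 85.4 CPM, Nr4a3 at 65.4 and 101, and Tnfrsf4 at 25.1 and 10.9. Only 1 rule gene was detected in 29 WT and 41 I173A cells, and 2 were detected in 60 and 50. All 6 were seen together in 1 cell of each genotype.

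The levels of the rule genes in the cells that the same rule selected in the CD4 SP gate are given as a description. Xcl1 stood at 27.4 CPM in WT and 22.8 in I173A cells of the CD4 SP gate, and Tnfrsf4 at 512 and 662 CPM there. Tnfrsf9 was at 293 and 364 CPM there, Bcl2a1b at 175 and 163, Gadd45b at 94.6 and 113, and Nr4a3 at 87.5 and 84.8.

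Beyond the rule genes, 12 TCR response genes were higher and 7 maturation and egress genes lower in agonist-signalled than in other noncycling CD8 SP cells. A gene was counted as higher or lower when it differed at least 2-fold in the same direction in both genotypes, among genes with at least 50 UMIs in the compared groups of each genotype. Since these cells were chosen by genes that move with this programme, the contrast is a description. Of 8659 genes other than the rule and cycle genes, 144 were higher (1.66%) and 132 lower (1.52%), and the median log2 ratio over all of them was -0.01 in WT and 0.01 in I173A. Against only those other cells whose depth lay within the central range of the agonist-signalled cells' depth, 138 were higher and 115 lower. The distributions of depth were not matched within that range. Of 26 TCR response genes, 12 were higher and none lower, with a median log2 ratio of 0.88 in WT and 1.28 in I173A. Nr4a1 (Nur77), the sister gene of Nr4a3, stood at 319 CPM in WT and at 442 in I173A agonist-signalled cells against 25.7 and 37.3 CPM in the others, ratios of 12.4 (10.7 to 14.5) and 11.8 (10.4 to 13.5). It was detected in 46 of 146 WT and 47 of 133 I173A cells, so most agonist-signalled cells had none of its UMIs. The third family member, Nr4a2, was at 41.2 and 100 CPM against 2.62 and 2.20.

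Other TCR response genes had smaller ratios. Cd5, a negative regulator whose level follows the strength of the receptor's self-recognition, stood at 414 CPM in WT and at 518 in I173A against 207 and 225, ratios of 2.00 (1.81 to 2.21) and 2.30 (2.10 to 2.53). Egr2, an EGR family transcription factor, was 2.69-fold and 2.87-fold higher, and Egr1, with ratios of 1.91 and 1.99, did not reach 2-fold. Cd69, which keeps thymocytes from leaving by antagonising S1PR1, had ratios of 1.62 in WT and 2.28 in I173A and so did not reach 2-fold in both. Irf4 and Irf8, transcription factors of the interferon regulatory family, had ratios of 7.51 and 13.4 in WT and 8.30 and 8.40 in I173A. The barcode with dendritic markers held 34 of the 68 Irf8 UMIs in I173A, and without the highest cell of each group the ratio was 12.1 (6.89 to 21.4) in WT and 9.65 (6.02 to 15.3) in I173A.

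**Figure D2:**
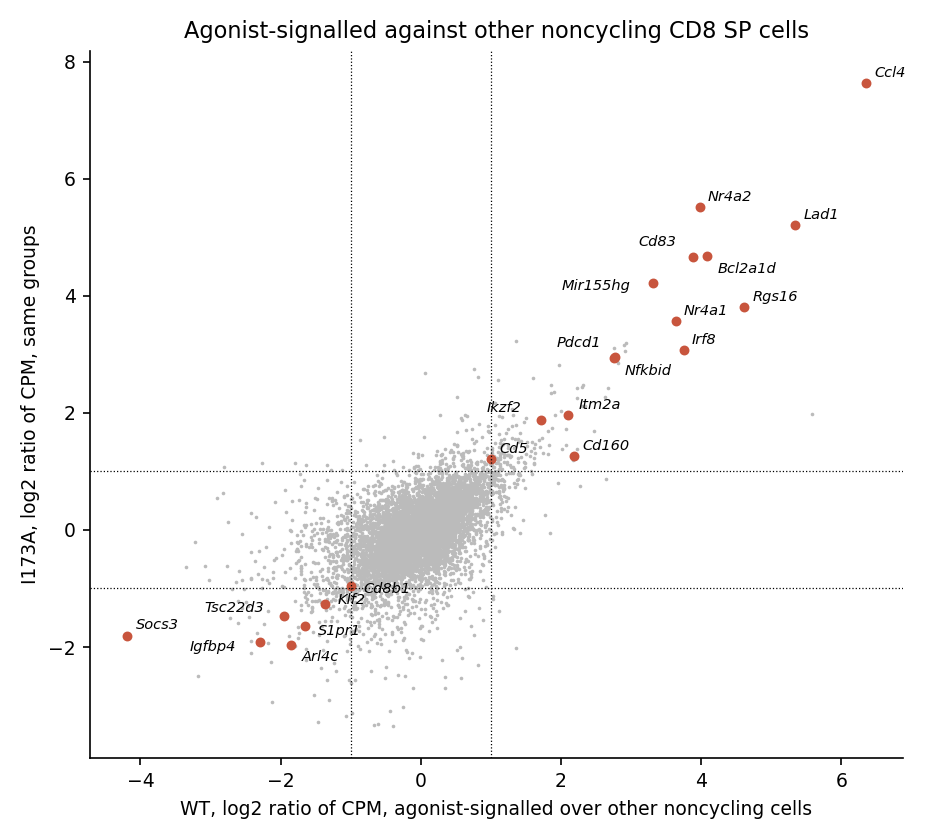
Each point is a gene with at least 50 UMIs in each genotype, at its log2 ratio of CPM in agonist-signalled over other noncycling CD8 SP cells, WT on the horizontal and I173A on the vertical axis. Dotted lines mark 2-fold, named genes are in red, and rule and cycle genes are left out. Ccl4, Lad1, Nr4a2 and Nr4a1 lie at the upper right in both genotypes and Igfbp4, Arl4c and Socs3 at the lower left.

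Of 22 measured NF-κB subunits and feedback genes, 7 were at least 2-fold higher in both genotypes and none lower, with medians of 0.66 and 0.97 on the log2 scale. Nfkbid, a nuclear IκB protein that acts with NF-κB, stood at 146 CPM in WT and at 198 in I173A against 21.7 and 25.9. Nfkb2 and Relb, the subunits of the non-canonical arm, were 2.56-fold and 2.45-fold higher in WT and 3.46-fold and 2.96-fold in I173A. The inhibitor Nfkbia was 2.23-fold and 2.05-fold higher. Of 17 genes of the BCL2 family and of p53-linked death, 5 were higher and 1 lower. Bcl2l11 (BIM), which triggers the death of thymocytes in negative selection, was at 89.6 and 77.5 CPM against 22.2 and 29.7, and the protective paralog Bcl2a1d at 53.8 and 75.5 against 3.16 and 2.96. Bcl2a1d is a paralog of the rule gene Bcl2a1b, and how their reads were divided is uncertain. Its level is therefore not independent of the rule. The gene that was lower was Bcl2 itself, at 106 and 147 CPM against 247 and 296.

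Inhibitory receptors and IEL precursor genes were partly higher. Of 10 inhibitory receptor and anergy genes, Pdcd1, Cd200 and Cd160 were higher and none lower. Pdcd1 (PD-1) stood at 49.3 CPM in WT and at 63.6 in I173A against 7.25 and 8.19, and was detected in 35 and 33 cells. Cd160, an inhibitory and natural killer receptor, was at 186 and 133 CPM against 41.0 and 55.7. Of 11 IEL precursor genes, 5 were higher (Pdcd1, Cd160, Ikzf2, Nr4a1 and Bcl2l11) and 1, Klf2, was lower, and this list shares genes with those above. Ikzf2 (Helios), a transcription factor seen in strongly self-reactive T cells, was broad, in 107 WT and 102 I173A cells, at 374 and 392 CPM against 114 and 107. It supplied 417 of the 462 UMIs of the regulatory T cell list in WT and 395 of 446 in I173A, while Foxp3 was at or near 0.

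Of 28 measured maturation and egress genes, 7 were at least 2-fold lower in both genotypes and none higher, with medians of -0.44 and -0.43. Klf2 stood at 268 CPM in WT and at 310 in I173A against 690 and 746, and S1pr1 at 49.3 and 46.7 against 155 and 146. Il7r, the α chain of the receptor for the survival cytokine IL-7, was at 60.0 and 90.4 CPM against 195 and 220. Ccr7, the chemokine receptor that draws cells into the medulla, was less different, with ratios of 0.600 (0.540 to 0.665) and 0.643 (0.578 to 0.714). Of 16 genes of immature thymocytes, Cd24a, Sox4 and Itm2a were higher and Dntt and Arpp21 lower. Cd24a, the surface marker lost in late SP cells, was at 50.2 and 97.4 CPM against 12.8 and 13.7, while Dntt, the terminal transferase of early receptor rearrangement, was at 4.48 and 5.96 against 20.2 and 22.8.

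Metabolic lists differed among themselves. Of 33 growth, ribosome biogenesis and nutrient genes 6 were higher and none lower, among them Odc1, the first enzyme of polyamine synthesis (3.01-fold and 2.84-fold), Srm, spermidine synthase (2.80-fold and 2.20-fold), and Ncl, nucleolin (2.27-fold and 2.23-fold). No gene of 18 for lipid oxidation and carnitine transport and none of 29 S phase genes was past 2-fold in both genotypes in either direction. Of 32 genes that encode the TCR complex or its first signalling steps none was past 2-fold either, and Cd3e had ratios of 0.782 (0.738 to 0.827) and 0.792 (0.747 to 0.838). Of 10 glucocorticoid-responsive genes, Tsc22d3 (GILZ), Sgk1 and Txnip were lower and none was higher. Of 13 dissociation and heat stress genes, Fos and Hsp90aa1 were higher and none lower, with medians of 0.75 and 0.68. The stress list shares Fos, Fosb and Egr1 with the TCR response list, and the part of stress in the result was not tested.

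**Figure D3:**
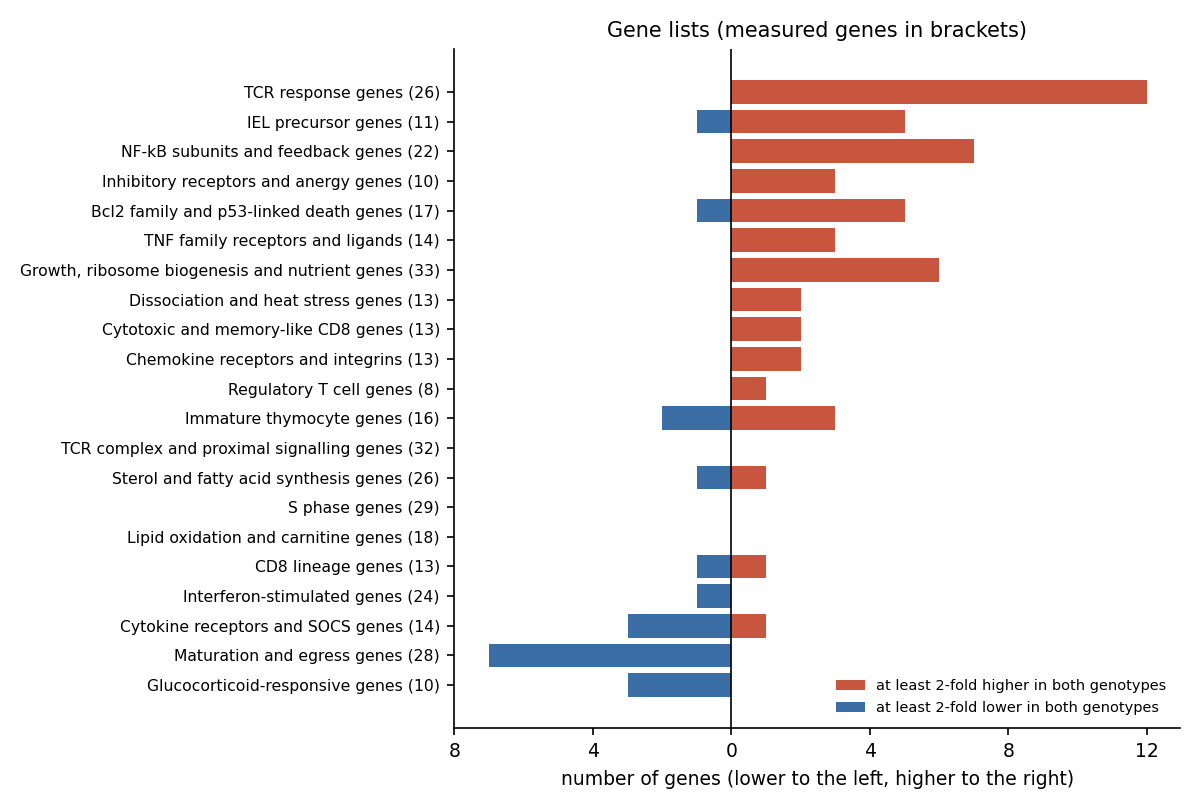
Number of genes of each list that were at least 2-fold higher (red, to the right) or lower (blue, to the left) in agonist-signalled than in other noncycling CD8 SP cells in both genotypes, with the number of measured genes in brackets; IEL stands for intraepithelial lymphocyte. The TCR response list has 12 of 26 genes on the right and the maturation and egress list 7 of 28 on the left.

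By the size of the change, the genes with the highest ratios in both genotypes were Ccl4, Lad1, Bcl2a1d, Nr4a2, Cd83, Rgs16, Nr4a1, Mir155hg, Irf8, Kit, Irf4 and Tmem238. The limit given above for Bcl2a1d, as a paralog of a rule gene, holds for its place here. Ccl4, an inflammatory chemokine, stood at 169 CPM in WT and at 287 in I173A against 2.08 and 1.44. It was detected in only 12 cells of each genotype, and 1 WT cell held 78.8% of its UMIs. Without the highest cell of each group the ratios were 23.4 (13.4 to 42.3) in WT and 178 (106 to 325) in I173A. Lad1 (ladinin), an anchoring filament protein, was more evenly spread, in 50 and 53 cells at 171 and 200 CPM against 4.24 and 5.39. Kit, the stem cell factor receptor, was at 28.7 and 57.6 CPM in 24 and 36 cells, and it alone gave 32 of the 39 and 58 of the 71 UMIs of the natural killer and innate lymphoid list, whose Ncr1, Klra8 and Klre1 were at 0. The lowest ratios were those of Slc16a5, G0s2, Elovl6, Dntt, Igfbp4, AL592169.1, Arl4c, Fam240a, Ggt5 and Socs3. Igfbp4, an insulin-like growth factor binding protein of maturing thymocytes, was at 66.3 and 79.5 CPM against 324 and 300. Socs3, an inhibitor of cytokine receptors, stood at 1.79 CPM in WT and at 5.96 in I173A against 32.6 and 20.9, from 2 and 6 UMIs.

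The levels changed along the rule's own count. Noncycling cells were divided by their summed rule-gene UMIs into 0, 1, 2, 3, 4 to 5, and 6 or more, the last class holding 71 WT and 58 I173A cells. Klf2 stood at 707 CPM in WT and at 768 in I173A cells with no rule-gene UMI, at 411 and 408 in those with 3, and at 187 and 266 in those with 6 or more. S1pr1 went from 160 and 152 CPM with none to 20.18 and 19.96 with 6 or more, and Cd8b1 from 1952 and 1857 to 716 and 737. Ikzf2 was at 99.3 and 89.4 CPM with none, 326 and 376 with 3, and 375 and 369 with 6 or more. Nr4a1 was not evenly ordered: in I173A it was at 159 CPM with a sum of 2, 31.4 with 3, 148 with 4 to 5 and 799 with 6 or more, and in WT at 51.3, 141, 442 and 365. Cells just inside the threshold thus had lower Nr4a1 in I173A than the cells just outside it, while Ikzf2, Klf2 and Cd8b1 had no such break. These Nr4a1 levels rest on 8 UMIs at a sum of 3 and 108 at a sum of 2. Median depth went from 5155.5 UMIs in WT and 4867 in I173A with none to 7266 and 8034 with 6 or more, and its part was not tested.

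**Figure D4:**
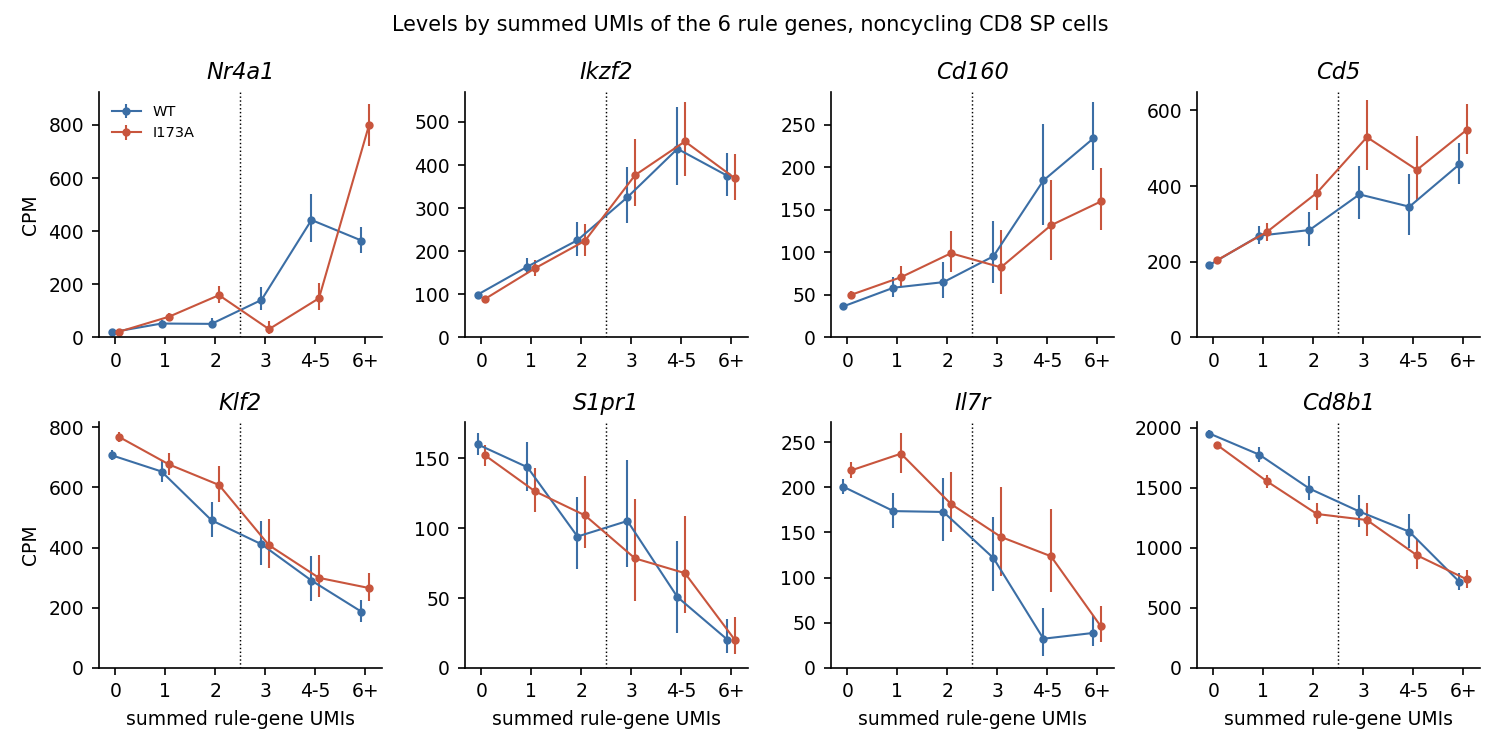
Level in CPM, with exact 95% Poisson intervals, of 8 genes in noncycling CD8 SP cells grouped by the summed UMIs of the 6 rule genes, for WT (blue) and I173A (red); the dotted line marks the threshold of the rule. Klf2, S1pr1, Il7r and Cd8b1 are lowest with 6 or more in I173A and at or near their lowest in WT, Ikzf2 is highest at 4 to 5, and Nr4a1 is uneven in I173A.

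Agonist-signalled cells with and without Xcl1 were compared, a split made after seeing the data. There were 46 WT cells (31.5%, 24.1 to 39.7) and 27 I173A cells (20.3%, 13.8 to 28.1) with 3 or more Xcl1 UMIs, and 74 and 82 with none, from which the barcode with dendritic markers was left out. Cells with 3 or more were deeper, with medians of 8441 and 10059 UMIs against 5294 and 6111, and the part of depth was not tested. Any cell with 3 or more Xcl1 UMIs reached the rule's sum on Xcl1 alone, whereas a cell with none reached it on the other rule genes. The part of this selection in the differences, those of Egr1, Fos and Nr4a1 among them, was not tested. Genes were compared if they had at least 50 UMIs summed over both classes and both genotypes, with no floor for each genotype. Of 4568 such genes, 38 (0.832%) were at least 2-fold higher in the Xcl1 cells of both genotypes and 60 (1.31%) lower. Ccl4 stood at 381 CPM in WT and 992 in I173A Xcl1 cells against 55.2 and 25.2. As given above, few agonist-signalled cells held Ccl4 and a single WT cell held most of its WT UMIs. This split was not repeated without the highest cell. Crtam, an adhesion receptor of activated cytotoxic cells, was at 157 and 190 CPM against 25.3 and 23.4, and Pdcd1 at 80.8 and 141 against 16.1 and 25.2. Ly6c2, Irf8, Irf4, Ccr8 and Cd83 were also among the highest. Egr1 was at 104 and 133 CPM against 405 and 338, and Fos at 11.5 and 22.8 against 75.9 and 79.1, both lower in the Xcl1 cells. Ccr9, a homing receptor of thymocytes, and Il7r were lower too, with ratios of 0.276 and 0.412 in WT and 0.356 and 0.264 in I173A. Nr4a1 differed in direction between the genotypes, with a ratio of 0.432 (0.341 to 0.545) in WT and 1.31 (1.06 to 1.60) in I173A. Ikzf2 was lower in the Xcl1 cells, at 277 and 296 CPM against 437 and 408.

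Compared with cells of the same rule in the CD4 SP gate, 467 WT and 457 I173A cells, agonist-signalled CD8 SP cells differed in single genes of the CD8 lineage and of cytotoxic cells, in a comparison added after seeing the data. Of 7161 measured genes, 87 (1.21%) were at least 2-fold higher in the CD8 SP cells of both genotypes and 267 (3.73%) lower, and the median log2 ratio over all of them was -0.17 in WT and -0.15 in I173A. Of 13 cytotoxic and memory-like genes, 4 were higher (Nkg7, Plac8, Ctsw and Cst7) and 2 lower (Cxcr3 and Id2), with medians of 0.19 and 0.10. Nkg7 and Itgae also mark the gate: in the CD8 SP gate Nkg7 was at 455 and 547 CPM in agonist-signalled against 750 and 763 in other noncycling cells, and Itgae at 160 and 165 against 239 and 241. Beside Cd8a, Cd8b1 and Cd4, which follow the sort, Crtam was at 83.4 and 68.9 CPM against 3.71 and 1.25, Cd160 at 186 and 136 against 11.97 and 14.4, Itgae (CD103, the integrin of epithelial T cells) at 160 and 165 against 13.1 and 21.9, and Cst7 (cystatin F) at 85.1 and 83.1 against 14.5 and 12.8. Lower were Cd40lg, the helper T cell ligand, with 1 UMI in WT and 11 in I173A against 674 and 553, and Tnfrsf18 (GITR) at 131 and 125 against 307 and 447. Penk, the enkephalin precursor, had no UMI in the CD8 SP cells, against 59.6 and 69.8 CPM in the CD4 SP cells. Foxp3 was at 19.4 and 15.02 CPM in the CD4 SP cells. Cd5 was at 414 and 528 CPM in the CD8 SP cells and 826 and 859 in the CD4 SP cells, and Nr4a1 at 319 and 451 against 470 and 683. Levels of I173A in this comparison leave out the dendritic-like barcode. Cd160 and Nr4a1 also differed between the gates in other noncycling cells, which did not pass the rule. For Cd160, the CD8 SP gate gave 41.0 (WT) and 55.7 CPM (I173A) there, and the CD4 SP gate 3.09 and 2.79. For Nr4a1, the corresponding levels were 25.7 and 37.3 against 87.4 and 125. The part of the gate itself in the differences between agonist-signalled cells was not tested.

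Between genotypes, the agonist-signalled cells were compared gene by gene in both directions. Of 5244 genes with at least 50 UMIs, 246 (4.69%) were at least 1.5-fold higher in I173A and 146 (2.78%) lower. The same genes in other noncycling cells gave 12 (0.229%) and 5 (0.0954%), but there with over 10 times as many summed UMIs per genotype, and the part of UMI number in this difference was not tested. Among the highest ratios were 5 genes carried mainly by the barcode with dendritic markers: H2-Aa, H2-Eb1, H2-Ab1, Cd74 and Cst3. Without it, 223 of 5205 genes were higher (4.28%) and 139 lower (2.67%), the median log2 ratio over all genes was 0.02, and Cd74 went from a ratio of 10.3 to 0.935. Ratios and levels of agonist-signalled cells that follow leave it out unless stated, and ratios of single genes in the other cells are over all of them.

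Tnf, the inflammatory cytokine, stood at 23.3 CPM in WT and at 76.0 in I173A agonist-signalled cells, a ratio of 3.26 (2.06 to 5.31), from 26 UMIs in 22 cells and 75 UMIs in 29 cells. In the other noncycling cells its ratio was 0.921 (0.737 to 1.15). Nr4a2 was 2.48-fold higher (1.73 to 3.597), and 0.839 (0.493 to 1.42) in the others. Spry1, an inhibitor of receptor tyrosine kinase and TCR signalling, had 16 and 39 UMIs, a ratio of 2.75 (1.504 to 5.28). Rel, the c-Rel subunit of NF-κB, stood at 61.8 CPM in WT and at 125 in I173A, a ratio of 2.01 (1.49 to 2.75), and 0.951 (0.839 to 1.08) in the others. Of 25 TCR response genes, 5 (Nr4a2, Spry1, Myc, Cd83 and Icos) were at least 1.5-fold higher and none lower, 19 of 25 had a ratio above 1, and the median was 0.15. In other cells the median of 24 of these genes was 0.03 and 13 were above 1. Nr4a1 was 1.41-fold higher (1.23 to 1.63) in agonist-signalled cells and 1.45-fold (1.26 to 1.68) in the others. Egr2 and Ikzf2 had ratios of 0.976 (0.673 to 1.41) and 1.07 (0.931 to 1.23), and Cd5 1.27 (1.12 to 1.45).

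Of 8 measured glucocorticoid-responsive genes, Tsc22d3, Ddit4 and Pik3ip1 were at least 1.5-fold higher and none lower, with a median of 0.34, and in the other cells Tsc22d3 and Ddit4 were, with a median of 0.43. Tsc22d3, a glucocorticoid-induced leucine zipper, was 2.89-fold higher (1.92 to 4.43) in agonist-signalled cells and 2.13-fold (2.00 to 2.26) in the others, and, with all barcodes, was detected in 22 of 146 WT and 50 of 133 I173A agonist-signalled cells against 40.6% and 61.4% of the others. Ddit4, a stress-induced inhibitor of mTORC1, stood at 126 CPM in WT and at 236 in I173A agonist-signalled cells and at 182 and 345 in the others. Of 21 interferon-stimulated genes 3 (Ifit1, Irgm1 and Gbp2) were at least 1.5-fold higher and none lower, with 19 above 1 and a median of 0.27, against 10 above 1 and a median of -0.05 in the others. Of 11 dissociation and heat stress genes only Hsph1 was past the threshold, lower, with a median of -0.35, against -0.17 in the others. Cpt1a, the carnitine shuttle enzyme that admits long-chain fatty acids to mitochondria, had 5 UMIs in WT and 20 in I173A agonist-signalled cells, below the 50 UMI floor, and a ratio of 3.57 (2.85 to 4.49) in the others.

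Lower in I173A agonist-signalled cells were Nrgn, Rora, Hsd11b1, Cxcr6, Ybx3, Rarg, Iah1, Rfc5, Lztfl1, Zfp84, Rab6b and Agps. Cxcr6, a chemokine receptor of tissue-resident cells, had 89 UMIs in 44 WT cells and 37 in 22 I173A cells, a ratio of 0.470 (0.311 to 0.697), and 0.704 (0.638 to 0.776) in the others. Rora, a nuclear receptor of innate-like lymphocytes, was 0.416-fold (0.208 to 0.786), from 38 and 14 UMIs. Nrgn, a calmodulin-binding protein, had 62 UMIs in 9 WT cells and 15 in 11 I173A cells. A single WT cell held 56.5% of its UMIs, and without the highest cell of each genotype its ratio over all barcodes moved from 0.268 (0.142 to 0.477) to 0.491 (0.227 to 1.00).

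**Figure D5:**
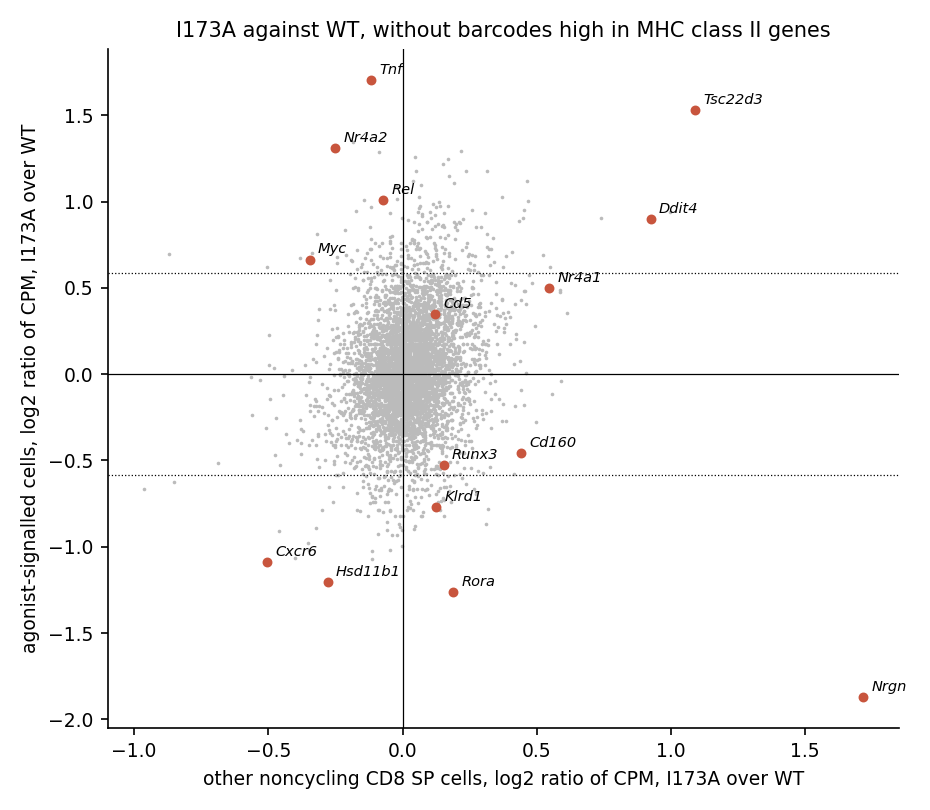
Each point is a gene with at least 50 UMIs in each comparison, at its log2 ratio of CPM in I173A over WT, in other noncycling CD8 SP cells (horizontal) and in agonist-signalled cells (vertical), without barcodes holding 10 or more UMIs of MHC class II genes; dotted lines mark 1.5-fold. Tsc22d3 and Ddit4 lie to the upper right, Tnf and Nr4a2 near 0 on the horizontal axis, and Nrgn at the lower right.

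TCR contigs were recovered from 143 of 146 WT and 131 of 133 I173A agonist-signalled cells. All 246 cells with both chains had a receptor of their own: no receptor was found in another of them or in another noncycling CD8 SP cell, among 4004 with both chains. None of 250 cells with an α chain carried the TRAV11-TRAJ18 joint of invariant NKT cells, which allows a share of up to 1.20% when a count of 0 is read as at most 3 counts. Of 147 V and J segments examined, with no correction for their number, the interval of the ratio to other cells left out 1 for TRAJ44 in WT (5 of 132 cells, 3.79%, against 1.10%) and for TRAV16N in I173A (13 of 118, 11.0%, against 5.14%), and for neither in the other genotype.

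A second α chain was found in 26 of 132 WT agonist-signalled cells with an α chain (19.7%, 13.3 to 27.5) and 12 of 118 I173A cells (10.2%, 5.37 to 17.1), against 13.14% and 13.05% of the other cells. A second β chain, which can mark a doublet, was found in 9.29% (5.04 to 15.4) and 8.46% (4.30 to 14.6) against 4.50% and 4.93%. Without cells holding 2 β or 3 α contigs, the agonist-signalled share was 4.61% in WT and 4.47% in I173A. Of the CDR3, 7 features were examined, with the data in view. A hydrophobic residue (isoleucine, leucine, phenylalanine, valine, methionine, tryptophan, tyrosine or cysteine) at position 6 or 7 of the β CDR3, positions tied to self-reactivity, was found in 50 of 140 WT cells (35.7%, 27.8 to 44.2) and 28 of 130 I173A cells (21.5%, 14.8 to 29.6) against 26.7% and 25.4% of other cells. The intervals of the 2 genotypes overlap. Such residues at both positions were found in 4 WT (2.86%) and 0 I173A cells, against 1.04% and 1.21% of other cells. Mean β CDR3 length was 13.8 residues in both genotypes, against 13.8 in WT and 13.9 in I173A other cells. A cysteine among the middle 5 residues, a feature of IEL precursors, was found in 0 agonist-signalled cells in either chain. At most 3 other cells per chain and genotype had one. A cysteine anywhere after the first residue of the β CDR3 was found in 10 of 140 WT cells (7.14%, 3.48 to 12.7) and 4 of 130 I173A cells (3.08%, 0.845 to 7.69). The shares in other cells were 4.95% and 5.32%. For the α CDR3 it was found in no agonist-signalled cell, against 0.199% and 0.291% of other cells.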

How the data were processed

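The authors deposited raw UMI counts per gene and barcode with hashtag counts in the same matrices, and TCR contig tables. The submitters' processing notes name Cell Ranger 6.0.1 and GRCm38 (mm10), and per the file headers the matrices carry software version 3.1.0. Hashtag 4 marks WT and hashtag 6 I173A, per the labels; hashtag 5 has no genotype and entered no comparison. Barcodes were kept with at least 500 genes, at most 10% mitochondrial UMIs, and 1 hashtag with at least 10 counts and 4 times each other hashtag. The members and the gene lists were chosen with earlier results of these data known.

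UMIs were summed per genotype and scaled to CPM, with Poisson intervals for levels, exact conditional intervals for ratios of 2 counts and Clopper-Pearson intervals for shares, all 95%. A gene with 0 counts was set to 3 for log2 bounds. Named genes were the rule and cycle genes, up to 12 with the highest and 10 (genotype: 12) with the lowest ratios whose interval left out 1, up to 4 members at each end of every gene list, the cell type markers, and a set that included Cd3e, Cd5, Nr4a1, Ikzf2 and Klf2. These rankings left out antigen receptor segments, mitochondrial, ribosomal and haemoglobin genes and genes named only by a clone. Genes named in the Xcl1 and CD4 SP comparisons and further list members past a threshold were chosen after their values were seen. The count contrasts were tested on simulated Poisson counts, which hold no variation between cells beyond counting error. The thinning was checked on barcodes of these data, only for the total of UMIs that it left. Python 3.11.15 was used with SciPy 1.17.1 and pandas 2.3.3.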

Additional observations from a re-analysis of the deposited data

Results flagged for a closer look

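Hashtag 5 cells, which the labels assign to no genotype, also passed the rule: 110 of 2745 cells of the CD8 SP gate (4.01%, 3.30 to 4.81). They entered no comparison. In the same contrast of I173A with WT, 8 named genes had a ratio on one side of 1 in agonist-signalled cells and on the other in other noncycling cells, with both intervals leaving out 1; the difference between the ratios was not tested, and 345 named genes were compared in this way. Nrgn had ratios of 0.268 and 3.28, Cd160 0.714 and 1.36, Klrd1 0.575 and 1.09, Runx3 0.681 and 1.11, and Emb 0.785 and 1.05. Myc had ratios of 1.55 and 0.785, Cd81 1.63 and 0.852, and Tgtp2 1.34 and 0.904. Without the barcode with dendritic markers Cd81 had a ratio of 1.46 (0.914 to 2.36). Without the highest cell of each group the interval in agonist-signalled cells took in 1 for Nrgn (0.227 to 1.00), Cd81 (0.980 to 2.60), Emb (0.661 to 1.05) and Tgtp2 (0.945 to 1.73), and not for Cd160 (0.541 to 0.861), Klrd1 (0.280 to 0.841), Myc (1.27 to 1.71) and Runx3 (0.456 to 0.974). Tgtp2 has a near-identical paralog, Tgtp1, so its reads may be divided between them.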

How the results depend on the processing

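Alternatives to the rule, the filters and the counting numbered 19, and those without the dendritic-like barcode and without each gene's highest cell were added after seeing the data. With a threshold of 2 the shares were 7.56% of WT and 8.46% of I173A cells, with a threshold of 5 they were 2.85% and 2.51%, and without Xcl1 in the rule the WT share was 4.08%. The I173A to WT ratio of the shares ran from 0.879 to 1.18 over all alternatives, below and above 1. Against other noncycling cells, genes at least 2-fold higher and lower numbered 80 and 55 with the threshold of 2, 267 and 307 with 5, and 77 and 70 with a floor of 200 UMIs; without each gene's highest cell 251 were lower, a change that taking a cell from the smaller group makes by construction. Between genotypes, genes at least 1.5-fold higher and lower numbered 659 and 416 with a floor of 20 UMIs and 14 and 2 with a floor of 200, so these counts follow the floor. The receptor shares stayed within their intervals. Of 704 values of single genes against other cells 655 stayed within the interval of the main value, 49 moved outside it and none changed direction; of 465 between genotypes 437 stayed, 27 moved and Cd74 changed direction without the dendritic-like barcode, at -0.10 on the log2 scale. No paired analysis was possible because each genotype is 1 sample per gate, and no replicate could be left out for the same reason. Depth limits the shares too, since 215 WT and 296 I173A noncycling cells had under 3000 UMIs.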
